A study of Homo sapiens with 3 samples.

Results

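ENAH, SCRIB, ARHGEF11, CTNND1 and EXOC7 encode proteins of the actin cytoskeleton, cell polarity, cell junctions and secretion, and their transcripts are known to be spliced differently by ESRP proteins in epithelial cells. They were chosen by name as 5 of the 23284 genes measured, and they account for 34 of the 41138 isoforms. All 5 genes passed the filter on low values, and 5 of 5 had enough signal for isoform shares to be compared. Polyadenylated RNA came from HEK293T, an easily transfected human embryonic kidney cell line, grown without TGF-beta treatment and collected 48 h after seeding onto siRNA. One library received ESRP2 siRNA, one Arkadia siRNA (Arkadia is the protein encoded by RNF111) and one a negative control siRNA. The siRNA sequences were not used here. The comparisons ask whether loss of ESRP2, or of the ubiquitin ligase Arkadia, is accompanied by other isoforms of known ESRP targets. Each group has 1 library, so no test was possible and each difference is between 2 libraries. Both knockdown libraries were set against the same control library.

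ESRP1 and ESRP2 are RNA-binding proteins that direct exon choice in epithelial cells, and their loss is a known part of the epithelial to mesenchymal transition. They bind GU-rich sequence near an alternative exon, and inclusion is generally promoted by binding downstream of the exon and repressed by binding upstream of it or within it. Many of their targets act on cell shape, adhesion and movement, so that an exon in a scaffold or adaptor protein can differ between cell types while the gene is expressed in both.

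The alternative exons of ENAH, ARHGEF11 and EXOC7 are shown because the shares below count the isoforms that hold them. For ARHGEF11, and for SCRIB below, the exon was taken because it separates the deposited isoforms. Whether it is the exon on which ESRP proteins are known to act was not examined. Each sequence is the spliced transcript read 5′ to 3′ from GENCODE 29 on GRCh38, with the alternative exon in capitals and the last and first 20 bases of the exons beside it in lower case. All are on the minus strand, lie within the coding sequence and keep the reading frame. The ENAH exon of 63 nt (chr1:225504991-225505053, exon 12 of 15, 21 codons) is the insert of the epithelial form of Mena. The ARHGEF11 exon of 120 nt (chr1:156971697-156971816) is exon 8 of 41 and adds 40 codons. EXOC7 has an exon of 93 nt (chr17:76091143-76091235, 31 codons) and one of 69 nt (chr17:76090329-76090397, 23 codons), which share the same flanking exons.
ENAH 63 nt: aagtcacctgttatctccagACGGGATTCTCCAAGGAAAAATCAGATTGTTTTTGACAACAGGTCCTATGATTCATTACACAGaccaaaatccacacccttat
ARHGEF11 120 nt: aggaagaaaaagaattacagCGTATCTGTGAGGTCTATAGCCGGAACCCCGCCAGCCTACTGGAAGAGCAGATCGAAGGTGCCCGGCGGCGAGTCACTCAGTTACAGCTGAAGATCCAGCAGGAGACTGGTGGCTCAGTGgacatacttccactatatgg
EXOC7 93 nt: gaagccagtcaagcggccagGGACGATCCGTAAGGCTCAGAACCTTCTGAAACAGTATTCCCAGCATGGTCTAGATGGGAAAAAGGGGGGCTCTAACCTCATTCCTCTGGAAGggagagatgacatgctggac
EXOC7 69 nt: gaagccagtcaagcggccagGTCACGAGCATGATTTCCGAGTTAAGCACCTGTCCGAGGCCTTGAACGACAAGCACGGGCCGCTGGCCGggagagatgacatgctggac

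CTNND1 differs mainly at its 5′ end, where annotated isoforms begin translation at 3 different start codons. The first 30 coding bases from each start are shown, with the ATG in capitals, for GENCODE 29 on the plus strand of GRCh38. The first start (chr11:57791479-57791481) gives full-length p120-catenin, the second (chr11:57791641-57791643) a protein shorter by 54 codons and the third (chr11:57795613-57795615) one shorter by 101 codons, for isoforms with the same later coding exons. These are the first 3 of the start sites long known for p120-catenin, whose full-length form is typical of mesenchymal cells and whose shorter form from the last of these starts is typical of epithelial cells.
CTNND1 start 1: ATGgacgactcagaggtggagtcgaccgcc
CTNND1 start 2: ATGgccaacggcacactcacccgccggcat
CTNND1 start 3: ATGcaggagccggggcagattgtggagacc

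Each siRNA target was lower in its own library. RNF111 had an FPKM (fragments scaled to transcript length and library size) of 7.65 with ESRP2 siRNA, 1.15 with Arkadia siRNA and 6.38 with control siRNA, a level that decreased by 81.9% with Arkadia siRNA. ESRP2 had an FPKM of 4.27 with ESRP2 siRNA, 21.2 with Arkadia siRNA and 14.8 with control siRNA, a level that decreased by 71.1% with ESRP2 siRNA, although the authors' intervals of the ESRP2 siRNA and control siRNA libraries overlapped. ESRP1 was listed at 0, 0.123 and 0.116 FPKM with ESRP2, Arkadia and control siRNA, so ESRP2 was the ESRP gene measured above the floor in these cells. HEK293T is not a typical epithelial line. The 7 epithelial marker genes, ESRP1 and CDH1 among them, summed to 4.04 FPKM with ESRP2 siRNA, 3.61 with Arkadia siRNA and 3.77 with control siRNA. The 5 genes expected in these cells, VIM and CDH2 among them, summed to 378, 498 and 477. Most of that was VIM, at 301, 410 and 389 FPKM, while PAX2 was at 0.835, 2.13 and 2.13 FPKM. The 7 markers of other cell types summed to 5.52, 4.66 and 5.88 FPKM, of which the smooth muscle actin gene ACTA2 gave 5.28, 4.2 and 5.36, with HBB at 0 in all 3 libraries. The interval bounds of low genes implied about 12.4 M reads with ESRP2 siRNA, 9.08 M with Arkadia siRNA and 12.1 M with control siRNA.

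Isoforms with the alternative exon made up a smaller share of ENAH, SCRIB and ARHGEF11 with ESRP2 siRNA than with control siRNA, with differences of -25.3, -30.7 and -50.2 percentage points. With Arkadia siRNA the differences from control siRNA were -20.5, -25 and -24.8 points. In EXOC7 the 93 nt exon differed by -19.5 points with ESRP2 siRNA and by -7.14 points with Arkadia siRNA. In CTNND1 the share of isoforms from the first start codon differed by -30.5 points with ESRP2 siRNA and by -32.7 points with Arkadia siRNA. Because the control library is common to both comparisons, the low shares in both knockdowns are not separate observations.

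**Figure D1:**
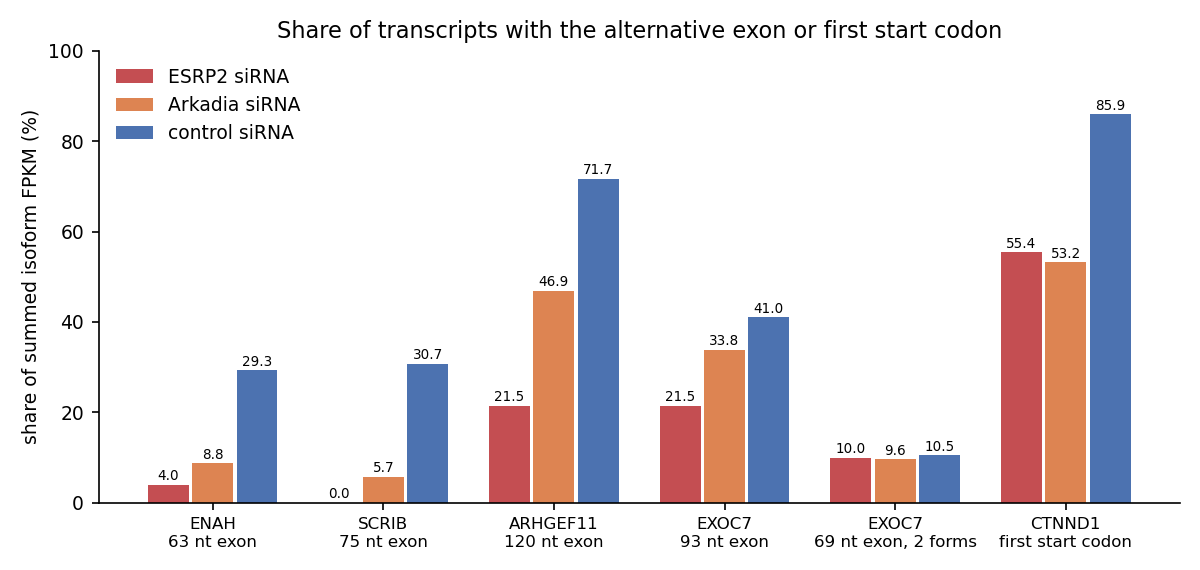
Bars give the share of a gene's summed isoform FPKM (percent, from 0) held by isoforms with the named exon, or, for CTNND1, with the first start codon, in 1 library each of ESRP2 siRNA, Arkadia siRNA and control siRNA. ARHGEF11 stood at 21.5%, 46.9% and 71.7%, while the EXOC7 exon of 69 nt, in its 2 forms, stood at 10.0%, 9.62% and 10.5%.

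ENAH encodes Mena, an Ena/VASP protein that binds the growing ends of actin filaments and keeps them elongating in lamellipodia and at junctions. Its epithelial isoform, NM_001008493 of 13172 nt and 591 codons, had an isoform FPKM of 1.07 with ESRP2 siRNA, 1.19 with Arkadia siRNA and 5.12 with control siRNA. Its share of ENAH was 3.96%, 8.78% and 29.3% in these libraries, so both knockdown libraries stood well below the control library. The isoform without the exon, NM_018212 of 570 codons, had an isoform FPKM of 26 with ESRP2 siRNA, 12.4 with Arkadia siRNA and 12.4 with control siRNA. With Arkadia siRNA the exon-containing isoform was thus lower beside a level of the other isoform like that of the control library, while with ESRP2 siRNA the isoform without the exon was 2.1 times its control level. The authors' intervals of the exon-containing isoform were wide, at 0 to 3.91 with ESRP2 siRNA, 0 to 3.22 with Arkadia siRNA and 0.388 to 9.84 with control siRNA, and overlapped.

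ARHGEF11 encodes PDZ-RhoGEF, an exchange factor that loads the GTPase RhoA with GTP downstream of G proteins and plexins. The isoform with the 120 nt exon, NM_198236 of 6889 nt and 1562 codons, had an isoform FPKM of 1.49 with ESRP2 siRNA, 3.63 with Arkadia siRNA and 5.97 with control siRNA. The isoform without it, NM_014784 of 6769 nt and 1522 codons, had an isoform FPKM of 5.45, 4.12 and 2.36 in the same order of libraries. The more abundant isoform was therefore the one without the exon with ESRP2 siRNA and Arkadia siRNA, and the one with it with control siRNA. The share with the exon was 21.5% with ESRP2 siRNA, 46.9% with Arkadia siRNA and 71.7% with control siRNA. The intervals overlapped for both isoforms, 0.0125 to 3.22 with ESRP2 siRNA against 2.41 to 9.55 with control siRNA for the form with the exon.

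EXOC7 encodes Exo70, the exocyst subunit that binds phosphoinositides at the plasma membrane and the Arp2/3 complex, and its isoforms are known to differ between epithelial and mesenchymal cells. NM_001013839, which has the 93 nt exon alone (684 codons), had an isoform FPKM of 3.02 with ESRP2 siRNA, 10.2 with Arkadia siRNA and 10.1 with control siRNA. NM_015219, which has neither exon (653 codons), had an isoform FPKM of 20.7, 24.8 and 18.6 in these libraries. Only the ESRP2 siRNA library was low for NM_001013839, and Arkadia siRNA and control siRNA were alike there. NM_001145299, with both the 93 nt and the 69 nt exon (707 codons), was at 2.19 FPKM with ESRP2 siRNA, 2.92 with Arkadia siRNA and 2.79 with control siRNA. Taking the 3 isoforms with the 93 nt exon together, the share was 21.5% with ESRP2 siRNA, 33.8% with Arkadia siRNA and 41.0% with control siRNA. The 69 nt exon, in either its short form or a longer form that extends it at its 5′ end, made up 10.0%, 9.62% and 10.5%. Of the other isoforms, NM_001145297 was at 0.462, 0 and 0.253 FPKM, NM_001145298 at 0, 0.8 and 0.321 FPKM, and the noncoding NR_028133 was listed at 0 in all 3 libraries.

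CTNND1 encodes p120-catenin, which binds the juxtamembrane part of classical cadherins and keeps them at the cell surface. Of its 22 isoforms, 11 were listed at 0 in all 3 libraries, and 6 exceeded 1 FPKM in at least 1 library. Isoforms from the first start codon held 55.4% of CTNND1 with ESRP2 siRNA, 53.2% with Arkadia siRNA and 85.9% with control siRNA. Isoforms from the second start held 14.4%, 25.6% and 0.838%, and those from the third start 30.2%, 21.1% and 13.3%. Full-length isoforms were thus the majority in all 3 libraries and lowest in both knockdown libraries. The known direction on ESRP loss is the other way, towards the full-length protein.

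Within these CTNND1 groups single isoforms carried most of the signal. NM_001085460, from the first start (933 codons), had an isoform FPKM of 13.7 with ESRP2 siRNA, 13.6 with Arkadia siRNA and 24.7 with control siRNA. NM_001206889, from the second start (879 codons), had an isoform FPKM of 4.14, 6.54 and 0.25. For the third start (832 codons) the isoform differed between the knockdowns. NM_001085469, which lacks the 72 nt exon, was at 7.2 FPKM with ESRP2 siRNA, 1.04 with Arkadia siRNA and 2.08 with control siRNA, and NM_001085468, which has it, was at 0.374, 4.34 and 0 FPKM. The share of isoforms with the 72 nt exon was 74.9% with ESRP2 siRNA, 95.9% with Arkadia siRNA and 93% with control siRNA. All isoform intervals of CTNND1 overlapped those of the control library. The deposited locus is shared with TMX2 and a TMX2-CTNND1 readthrough transcript that had 0, 0.435 and 0.627 FPKM, and reads could be split among them in ways the files do not show.

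**Figure D2:**
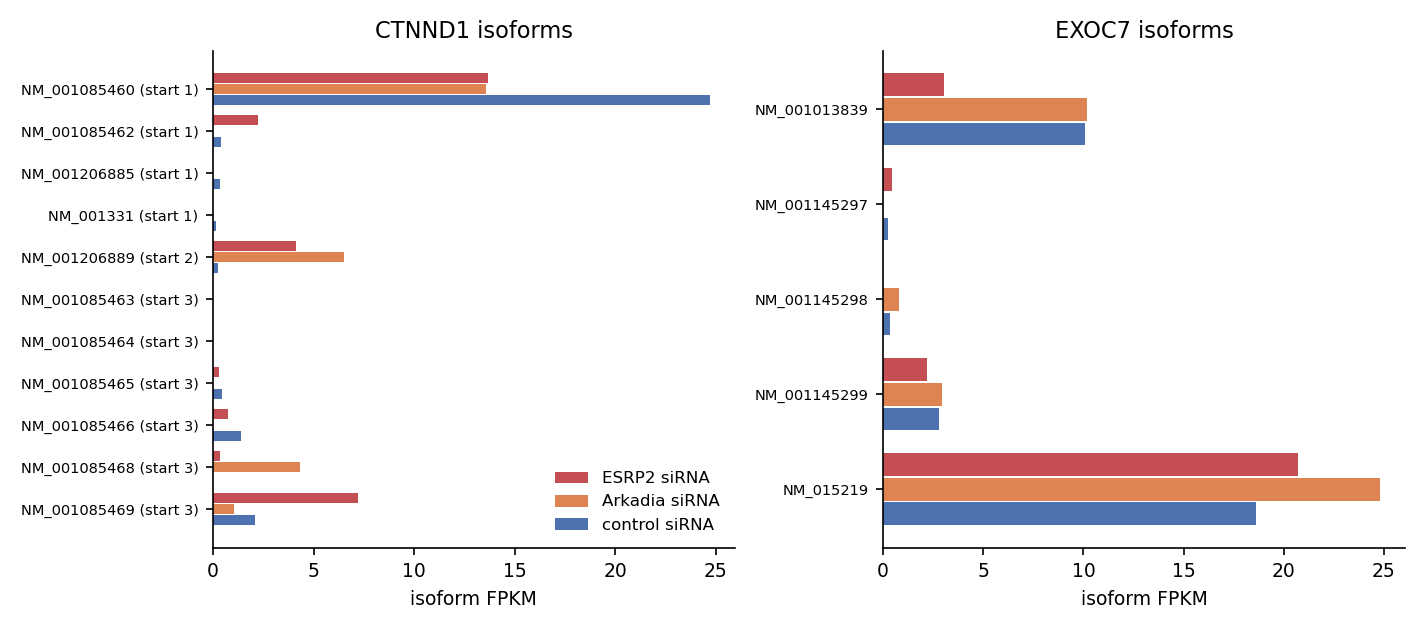
Bars give the isoform FPKM of CTNND1 (left, with the start codon of each isoform, counted from the 5′ end) and EXOC7 (right) in the ESRP2 siRNA, Arkadia siRNA and control siRNA libraries, for isoforms above 0 in at least 1 library. NM_001085460 stood at 13.7, 13.6 and 24.7 and NM_001013839 at 3.02, 10.2 and 10.1.

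SCRIB encodes Scribble, a scaffold that with DLG and LGL proteins sets the basolateral domain of epithelial cells. Its gene lies at chromosome 8, 144873090 to 144897549 on hg19, and the isoforms differ by an exon of 75 nt (25 codons, exon 35 of 37 in GENCODE 29), which is not shown. The isoform with the exon, NM_182706 of 5218 nt and 1655 codons, had an isoform FPKM of 0.000301 with ESRP2 siRNA, 1.78 with Arkadia siRNA and 5.35 with control siRNA. The isoform without it, NM_015356 of 5143 nt and 1630 codons, had an isoform FPKM of 21.6, 29.5 and 12.1. The share with the exon was 0.00139% with ESRP2 siRNA, 5.7% with Arkadia siRNA and 30.7% with control siRNA. With ESRP2 siRNA the exon-containing isoform was therefore near 0, below what 1 read is worth. The authors' interval for it was 0 to 0, which does not contain the value. With an upper bound of 0 it lay apart from the interval of the control library (0.351 to 10.5), so this is not read as a difference. The intervals of the other member isoforms overlapped those of the control library. How many of all isoforms had intervals apart was not counted.

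Few reads were expected to begin within most of these alternative exons. At the implied depths, the reads expected to begin within the ENAH exon numbered about 0.84 with ESRP2 siRNA, 0.68 with Arkadia siRNA and 3.9 with control siRNA. The same estimate was 0.00028, 1.2 and 4.8 for the SCRIB exon, and 2.2, 4 and 8.6 for the ARHGEF11 exon. It was 6.5, 11 and 15 for the EXOC7 exon of 93 nt, and 57, 36 and 89 for the 289 nt exon that holds the first CTNND1 start. The last 180 nt of that CTNND1 exon also belong to isoforms from the second start, so fewer reads tell the first start from the second. Reads that begin upstream and cross a junction add to these. Reads over a junction that skips an exon also tell the forms apart and were not estimated. The estimates derive from the isoform FPKM values, so they are not counts of reads. In ENAH, SCRIB and ARHGEF11 the isoform with the exon therefore had a handful of expected reads within it per library. Shares of CTNND1 rested on more reads shared among 22 isoforms.

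The total change in isoform usage, the summed absolute differences in share divided by 2, passed 0.25 for 4 of 5 members with ESRP2 siRNA (ENAH 0.253, SCRIB 0.307, CTNND1 0.394 and ARHGEF11 0.502), where 20.0% of 3455 genes with isoforms passed it. EXOC7 was at 0.215. With Arkadia siRNA 1 of 5 passed, CTNND1 at 0.418, where 17.1% of the 3455 genes passed, and SCRIB and ARHGEF11 (0.248) lay just below the threshold, ENAH was at 0.205 and EXOC7 at 0.0714. ARHGEF11 with ESRP2 siRNA ranked at the 95.9th percentile of all genes and CTNND1 with Arkadia siRNA at the 94.4th, while EXOC7 with Arkadia siRNA ranked at the 45.6th. The median gene changed by 0.0896 with ESRP2 siRNA and by 0.0846 with Arkadia siRNA. ENAH passed by a small margin, and with interval midpoints in place of FPKM its value was 0.222.

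A closer background for ENAH, SCRIB and ARHGEF11 is the set of 415 genes with 2 isoforms that differ by 30 to 150 nt in multiples of 3. With ESRP2 siRNA the longer isoform was lower by 25 points or more in 3 of the 3 members and in 30 of the 415 genes, 7.23%. With Arkadia siRNA it was lower by that much in 0 of the 3 members, although SCRIB fell short by less than the last digit printed, and in 11 of the 415 genes, 2.65%. Such a fall needs a share of at least 25% with control siRNA, which 249 of the 415 genes had, and a high share in the 1 control library favours a fall from it. ENAH and SCRIB could fall that far only because the control library was their high one, so these counts are a description. A change as low as that of ARHGEF11 was seen in 6 of 415 genes with ESRP2 siRNA and in 13 with Arkadia siRNA, ARHGEF11 itself included. For SCRIB the counts were 23 and 12, and for ENAH 29 and 24. Over the 415 genes the longer isoform was higher by 25 points in 18 with ESRP2 siRNA and in 22 with Arkadia siRNA.

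**Figure D3:**
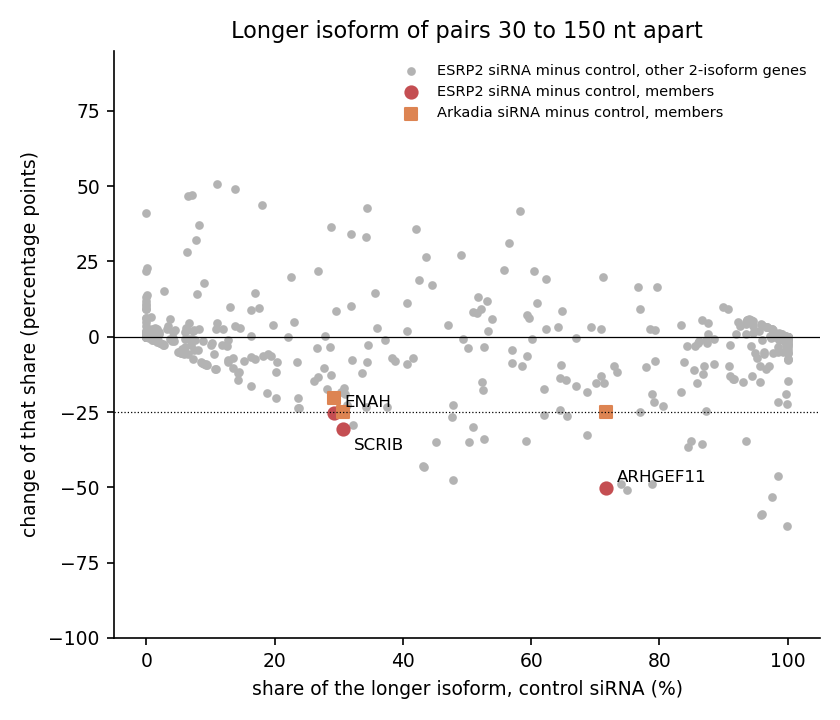
Each grey point is 1 of the other 2-isoform genes, with the share of its longer isoform with control siRNA (percent, horizontal) and the change of that share with ESRP2 siRNA (percentage points, vertical; the dotted line marks -25). ENAH, SCRIB and ARHGEF11 are drawn for ESRP2 siRNA (circles, at -25.3, -30.7 and -50.2) and Arkadia siRNA (squares, at -20.5, -25 and -24.8).

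Among other known ESRP targets, FGFR2, the receptor whose ligand specificity is set by ESRP-dependent exons, had a usage change of 0.204 with ESRP2 siRNA and 0.44 with Arkadia siRNA. It passed 0.25 with Arkadia siRNA, as CTNND1 did. Of the 6 other known ESRP targets with enough signal, 1 passed 0.25 with ESRP2 siRNA, where 20.0% of 3455 genes did. With Arkadia siRNA 1 of the 6 passed, where 17.1% of genes did.

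At the gene level 2 members passed the threshold, 1 in each comparison. RNA came from bulk cultures, so fewer cells expressing a gene and less RNA per cell cannot be told apart. A gene is counted as higher or lower past 1.5-fold on the log2((FPKM + 1)/(FPKM + 1)) scale. ENAH was higher with ESRP2 siRNA, at 27.1 FPKM with ESRP2 siRNA, 13.6 with Arkadia siRNA and 17.5 with control siRNA (log2 ratios to control of 0.60 and -0.34). This call did not hold with a pseudocount of 5 (log2 ratio 0.51), median-of-ratios scaling (0.48) or upper-quartile scaling (0.44), nor with length or GC decile medians subtracted (0.42 and 0.09). It was 1 of 5 members past 1.5-fold upwards with ESRP2 siRNA, where 19.9% of 11870 genes were, and 0 of 5 were lower, where 11.4% of genes were. SCRIB was higher with Arkadia siRNA, at 21.6 FPKM with ESRP2 siRNA, 31.3 with Arkadia siRNA and 17.4 with control siRNA (log2 ratios of 0.30 and 0.81). With Arkadia siRNA 1 of 5 members was higher, where 9.81% of genes were, and 0 of 5 were lower, where 11.8% of genes were. These member counts do not stand apart from the share of all genes. The median log2 ratio of the 5 members was -0.05 with ESRP2 siRNA and -0.09 with Arkadia siRNA, beside 0.12 and -0.02 for all genes.

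The other 3 members lay within 1.5-fold of the control library. ARHGEF11 was at 6.94 FPKM with ESRP2 siRNA, 7.75 with Arkadia siRNA and 8.33 with control siRNA. CTNND1 was at 28.7, 25.5 and 29.9 FPKM, and EXOC7 at 26.4, 38.7 and 32.1 FPKM. The authors' intervals of all 5 genes overlapped between every knockdown and the control library, also for ENAH (13.5 to 40.8 with ESRP2 siRNA and 8.35 to 26.7 with control siRNA) and SCRIB (15.2 to 47.4 with Arkadia siRNA and 8.27 to 26.6 with control siRNA). On hg19 the loci are chromosome 1, 225674534 to 225840845 for ENAH; chromosome 1, 156904632 to 157015162 for ARHGEF11; chromosome 11, 57479995 to 57586652 for CTNND1; and chromosome 17, 74075263 to 74099868 for EXOC7.

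Transcript base composition moved with the gene level of ENAH in both comparisons and with that of SCRIB with Arkadia siRNA, while SCRIB with ESRP2 siRNA stood opposite to genes of like composition. ENAH transcripts are 40.7% G and C, and the genes of the same GC decile had a median log2 ratio of 0.51 with ESRP2 siRNA and -0.34 with Arkadia siRNA. SCRIB transcripts are 66.5% G and C, and the genes of their decile had medians of -0.49 and 0.34, where SCRIB itself was at 0.30 and 0.81. With these medians subtracted, the log2 ratio of ENAH with ESRP2 siRNA was 0.09, that of SCRIB 0.79 with ESRP2 siRNA and 0.47 with Arkadia siRNA, so ENAH no longer passed 1.5-fold, and SCRIB passed it with ESRP2 siRNA and no longer with Arkadia siRNA. The part of GC content in these differences was not tested.

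**Figure D4:**
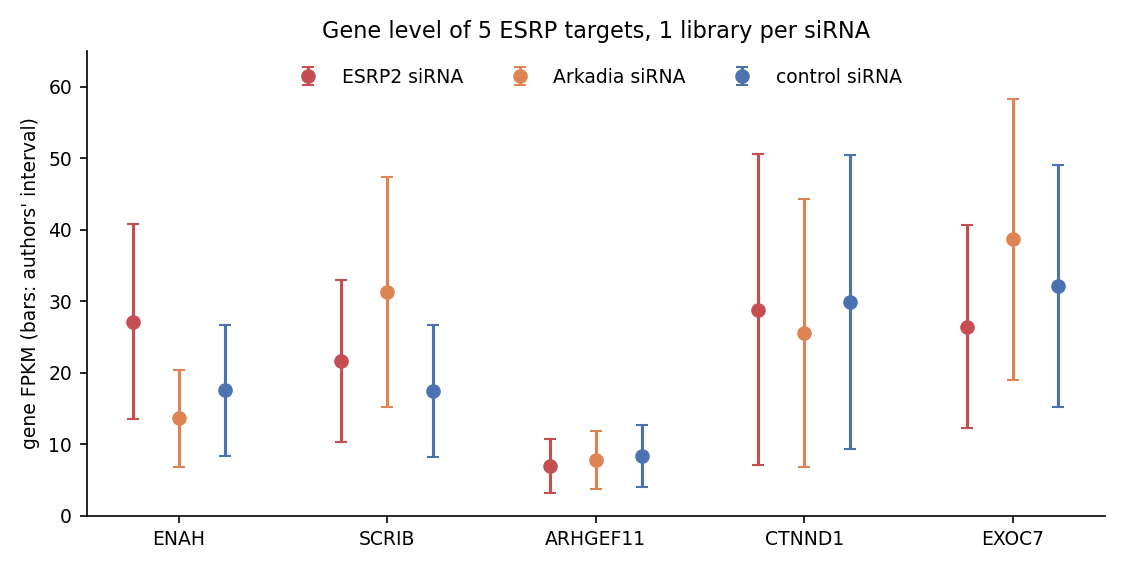
Points give the gene FPKM in the ESRP2 siRNA, Arkadia siRNA and control siRNA libraries, and bars the authors' lower and upper bounds; the vertical axis is linear from 0. ENAH is at 27.1, 13.6 and 17.5 and SCRIB at 21.6, 31.3 and 17.4, and all bars overlap those of the control library.

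The genes whose pair of log2 ratios lay nearest to each member, among 8556 genes with a mean FPKM of at least 5, were named by distance over the 3 libraries alone. They were STX7 and ZNF35 for ENAH, FIBP and SH3BP5L for SCRIB, LOC645249 and CGN for ARHGEF11, ARHGAP21 and TOE1 for CTNND1, and ZSCAN21 and KIAA0195 for EXOC7, at distances of 0.00138 to 0.0307 log2 units. Between 20 (SCRIB) and 146 (ENAH) genes lay within 0.1 units, so none of these neighbours was close to a member alone.

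Partners of the 5 proteins were examined at the gene level in 5 lists, of which 68 of 77 genes passed the filter. With ESRP2 siRNA 17 of 68 were higher and 10 lower past 1.5-fold (median log2 ratio 0.09), and with Arkadia siRNA 7 were higher and 13 lower (median -0.08). With median-of-ratios scaling the split with ESRP2 siRNA was 12 higher and 15 lower, so the balance differed between the scalings. The shares of all genes under that scaling were not computed. Of all genes, 19.9% were higher and 11.4% lower with ESRP2 siRNA, and 9.81% and 11.8% with Arkadia siRNA. The shares in the lists together lay above these, most so for the 13 of 68 lower with Arkadia siRNA. With GC-decile medians subtracted that count was 5, where 7.01% of all genes were lower. The exocyst list was the one with a majority of its genes higher. All intervals of the partner genes named below overlapped those of the control library.

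The exocyst tethers secretory vesicles to the plasma membrane, and RAL GTPases regulate its assembly. With ESRP2 siRNA 9 of 13 exocyst genes and partners were higher (EXOC1, EXOC2, EXOC4, EXOC5, EXOC6, EXOC8, RALA, RALB and RHOQ), 1 was lower and the median log2 ratio was 0.73. EXOC1 had a gene FPKM of 19.5 with ESRP2 siRNA, 6.11 with Arkadia siRNA and 7.89 with control siRNA. EXOC5 was at 15.6, 3.94 and 6.88 FPKM, and EXOC6 at 22.9, 8.59 and 10.6 FPKM. For these subunits the ESRP2 siRNA library was high. EXOC7 itself and EXOC3 had their lowest gene level there, both within 1.5-fold of the control library. EXOC3 was at 19.6, 28.6 and 29.3 FPKM. The log2 ratio of EXOC7 with ESRP2 siRNA was -0.27 and became -0.04 with the GC-decile median subtracted. The gene lower past 1.5-fold was the Arp2/3 subunit ARPC1B, at 22.9, 77.7 and 41.3 FPKM. With Arkadia siRNA 1 gene of the list was higher and 2 were lower, and the median was -0.20. The list has a median GC content of 44.4%, beside 49.3% for all genes tested, and with the median of each gene's GC decile subtracted 2 of 13 (15.4%) were higher with ESRP2 siRNA, beside 9.2% of all genes under the same subtraction, and the median was 0.42. The part of GC content in the exocyst result was not tested.

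Among 13 partners of Ena/VASP proteins, 2 were higher and 1 lower with ESRP2 siRNA (median 0.04), and 1 higher and 3 lower with Arkadia siRNA (median -0.32). Profilin 1, encoded by PFN1, delivers actin monomers to Ena/VASP proteins. PFN1 was at 300 FPKM with ESRP2 siRNA, 929 with Arkadia siRNA and 614 with control siRNA. It was lower with ESRP2 siRNA and higher with Arkadia siRNA. Its relative PFN2 was higher with ESRP2 siRNA, at 138, 77.8 and 71.3 FPKM. CAPZA2, a subunit of the capping protein that competes with Ena/VASP at filament ends, was at 79.2, 20.1 and 42.6 FPKM, high with ESRP2 siRNA and low with Arkadia siRNA.

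Of 17 polarity complex genes, 2 were higher and 3 lower with ESRP2 siRNA (median 0.09), and 2 higher and 2 lower with Arkadia siRNA (median -0.07). The atypical protein kinase C genes, whose products exclude the Scribble complex from the apical domain, stood on opposite sides: PRKCI was at 26.9 FPKM with ESRP2 siRNA, 10.9 with Arkadia siRNA and 11.9 with control siRNA, and PRKCZ at 14.2, 32.4 and 24.5 FPKM. LLGL2, a partner of Scribble, was at 9.84, 23.4 and 18.2 FPKM, lowest with ESRP2 siRNA.

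Of 16 genes of RhoA signalling, 3 were higher and 4 lower with ESRP2 siRNA (median 0.02), and 3 higher and 5 lower with Arkadia siRNA (median -0.08). The myosin regulatory light chain genes MYL12B and MYL12A, near-identical copies between which reads can be split, were higher with ESRP2 siRNA, at 532 and 105 FPKM with ESRP2 siRNA, 195 and 64.5 with Arkadia siRNA and 194 and 52.6 with control siRNA. GNA13, the G protein subunit that activates ARHGEF11, was at 18.7 FPKM with ESRP2 siRNA, 6.02 with Arkadia siRNA and 11.9 with control siRNA. It was higher with ESRP2 siRNA and lower with Arkadia siRNA.

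Of 9 cadherin and catenin genes, 1 was higher and 1 lower with ESRP2 siRNA (median -0.15), and 0 were higher and 1 lower with Arkadia siRNA (median 0.20). ZBTB33, which encodes Kaiso, a transcription factor bound by p120-catenin, was at 25.8 FPKM with ESRP2 siRNA, 9.01 with Arkadia siRNA and 16.1 with control siRNA. ARVCF, a relative of p120-catenin, was lower with ESRP2 siRNA, at 1.71, 5.43 and 3.53 FPKM.

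**Figure D5:**
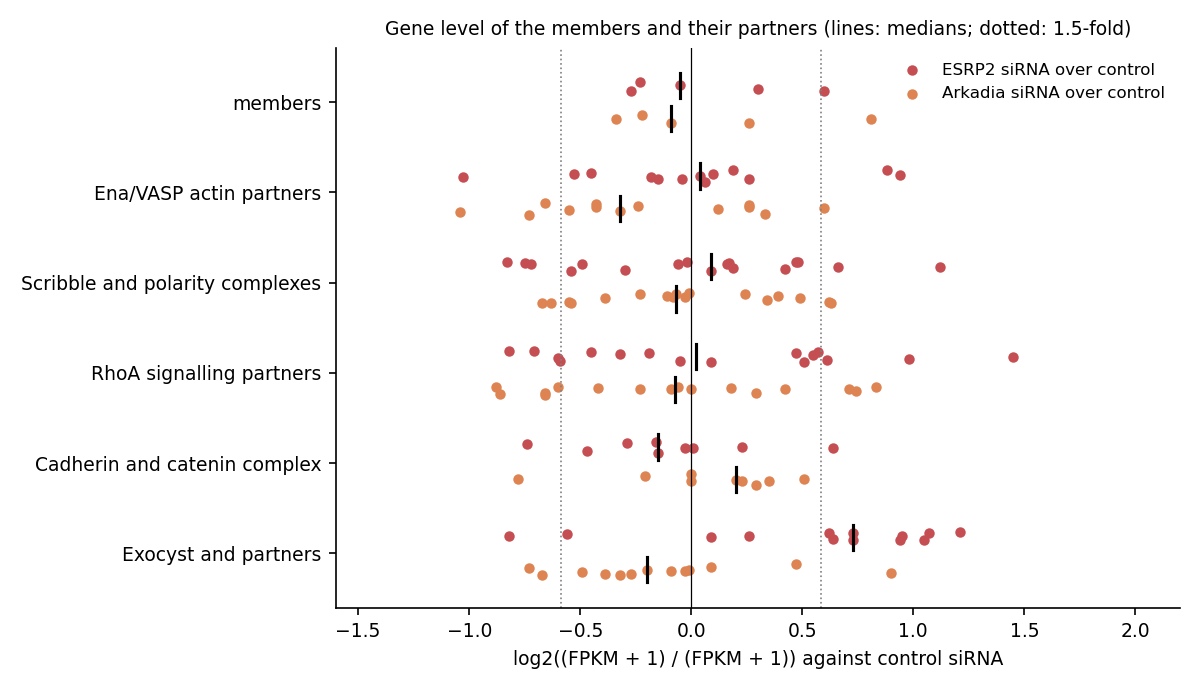
Points are genes of the 5 members and their 5 partner lists, placed by the log2 ratio of FPKM + 1 of ESRP2 siRNA (upper row of each list) or Arkadia siRNA (lower row) over control siRNA; black lines are list medians and dotted lines mark 1.5-fold. The exocyst list has a median of 0.73 with ESRP2 siRNA, and the members -0.05.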

How the data were processed

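The authors deposited FPKM values for genes and RefSeq isoforms with lower and upper bounds and a status per library, per the file headers. Per the submitters' processing notes the build was hg19 and the tools named were Cuffdiff, Cufflinks 2.1.1, Bowtie2 2.1.0 and TopHat2 2.0.10. How they were set, how libraries were scaled and whether strand was used is not given in the sources used here.

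From the deposited FPKM values, log2((FPKM + 1)/(FPKM + 1)) was computed for 11870 genes that had status OK throughout, isoforms reaching 300 nt and a mean FPKM of at least 1. Isoform shares were compared for 3455 multi-isoform genes whose isoforms summed to at least 5 FPKM in each library. Exon models, sequences and GC content came from GENCODE 29 on GRCh38, and loci from the files on hg19. Depth was estimated from the interval bounds of 1258 low genes with 1 isoform, of which 79.8% shared the same unit (tolerance 0.01). Python 3.11.15, numpy 2.4.6 and pandas 2.3.3 were used, and the share and ratio functions were tested on simulated data.

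With 1 library per group there are no tests and no p-values. The members, lists and thresholds were chosen with earlier results of these data known. Genes named were the members, the siRNA targets, up to 3 genes per partner list with the largest log2 ratio past 1.5-fold, the 2 nearest patterns per member and the 3 other ESRP targets with the largest usage change, some of which are not reported here. The 9 exocyst list genes that were higher, the single lower gene ARPC1B, EXOC3 and marker genes were named outside this rule, after their values were seen.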

Additional observations from a re-analysis of the deposited data

How the results depend on the processing

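No paired analysis was possible because each group has 1 library and the labels carry no replicate numbers. The count of members past 1.5-fold with ESRP2 siRNA was 1 and became 0 with a pseudocount of 5, with median-of-ratios scaling, with upper-quartile scaling and with the length-decile median subtracted, where the log2 ratio of ENAH was 0.51, 0.48, 0.44 and 0.42. With the GC-decile median subtracted it was again 1, with SCRIB (0.79) in place of ENAH (0.09), and the count with Arkadia siRNA became 0 (SCRIB 0.47). Of the 68 partner genes, 17 were higher with ESRP2 siRNA, 6 with GC subtraction and 5 at 2-fold. Those lower numbered 10, 3 and 1. With GC subtraction 9.2% of all genes were higher and 7.7% lower. Median-of-ratios scaling gave 12 higher and 15 lower, which turned the balance. With Arkadia siRNA 7 were higher, 1 with GC subtraction and 0 at 2-fold, and 13 were lower, 5 and 1. Of all genes, 6.35% were higher and 7.01% lower with Arkadia siRNA after GC subtraction. The shares of all genes at 2-fold and under median-of-ratios scaling were not computed. The causes were not tested.

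Under 4 alternatives the members past 0.25 numbered 3 to 4 with ESRP2 siRNA and 1 with Arkadia siRNA, and ENAH fell by 22.2 points with interval midpoints. Most of these alternatives could hardly move the isoform results. Shares of the gene FPKM left every member value unchanged, as did a minimum length of 300 nt, which all member isoforms exceed. A minimum mean share of 0.05 changed only CTNND1 and EXOC7. Interval midpoints alone moved any value of ENAH, SCRIB or ARHGEF11. No value past its threshold changed sign; below it, the log2 ratio of ARHGEF11 with Arkadia siRNA was -0.09 and became 0.07 with the length-decile median subtracted. Without replicates, library-to-library variation is unknown, and few reads were expected within the alternative exons of ENAH, SCRIB and ARHGEF11.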

Other observations

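CTNND1 carries further alternative exons that the members' shares above do not cover. The 63 nt exon was in isoforms that held 98.9% of CTNND1 with ESRP2 siRNA, 100% with Arkadia siRNA and 98.0% with control siRNA. The 18 nt exon was in isoforms with 2.68%, 0% and 5.98%, and the 87 nt exon in isoforms with 1.2%, 0% and 2.0%, so both were rare in each library. A noncoding 119 nt exon upstream of the start codons was in isoforms with 62.1%, 78.9% and 85.4%. TMX2, a thioredoxin-related membrane protein gene quantified in the same locus, had 135 FPKM with ESRP2 siRNA, 95.1 with Arkadia siRNA and 83.8 with control siRNA, past 1.5-fold with ESRP2 siRNA, where CTNND1 itself was at 28.7, 25.5 and 29.9 FPKM.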
